A study of Rattus norvegicus with 6 samples.

Results

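Oligodendrocyte precursor cells (OPC) of the rat nucleus accumbens were examined in single-nucleus RNA-seq data from 6 libraries. A nucleus was taken as an OPC when it held at least 500 detected genes, at most 5% of its unique molecular identifiers (UMIs, counts of distinct captured RNA molecules) in mitochondrial genes, at least 1 Pdgfra UMI and at least 3 UMIs of Pdgfra, Cspg4 and Vcan together. It also had to carry no UMI of the myelin genes Mog and Opalin or of the microglial gene Csf1r, and at most 1 UMI each of Gad1 plus Gad2 (GABA neurons), Aqp4 (astrocytes) and Pdgfrb plus Rgs5 (mural cells). This rule found 1612 OPC among 61609 nuclei kept. The members were thus chosen by their measured UMIs of these genes, and the levels of those genes in OPC are not findings.

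All tissue came from adult Sprague-Dawley rats aged 90 to 120 days. Every rat had learned to take heroin: 7 days at a fixed ratio of 1 response per infusion, 4 days at a ratio of 3, a progressive ratio test on day 12 and the ratio of 3 on days 13 and 14. Saline (libraries 1 to 3) or naloxone (libraries 4 to 6) was then injected and the brain was taken 1 h later, so both groups share the heroin history and no heroin-free group was analysed here. The 12 rats, 6 of each sex, were pooled into the 6 libraries, and each library holds tissue of both sexes. The labels do not say which rats entered which library, so p-values measure the spread between these pools.

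OPC, also called NG2 glia, are dividing cells spread through grey and white matter of the adult brain. They carry the platelet-derived growth factor receptor Pdgfra and the proteoglycan Cspg4 (NG2), receive synapses from neurons, and give rise to myelinating oligodendrocytes through a short-lived committed stage marked by genes such as Gpr17 and Bmp4. Naloxone is an antagonist of opioid receptors that precipitates withdrawal in opioid-dependent animals. Glucocorticoids act through the receptor Nr3c1, a client of the Hsp90 chaperone machinery, and induce genes such as Fkbp5, Zbtb16 and Klf9. The comparison of naloxone with saline asks which OPC transcripts differ 1 h after the injection.

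The libraries held 55739350 to 76272798 UMIs, and the OPC of a library summed to between 759127 and 1269226 UMIs. OPC numbered 193, 331 and 268 in the saline libraries and 332, 264 and 224 in the naloxone libraries. No OPC barcode occurred in more than 1 library. UMIs of both Xist and a Y-linked gene, which can mark droplets with nuclei of both sexes, occurred in 67 OPC, or 3.02 to 6.44% of the OPC of a library. Naloxone library 5 stood apart in the median share of mitochondrial UMIs of its OPC, 0.781% against 0.154 to 0.431% elsewhere.

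OPC made up 2.44, 2.28 and 2.88% of nuclei in the saline libraries and 3.10, 2.41 and 2.73% in the naloxone libraries. The groups overlapped, and an exact two-sided permutation test of the means of 2.54 ± 0.312% and 2.74 ± 0.345% (SD, n = 3 each) gave p = 0.6, where 3 against 3 libraries cannot go below p = 0.1. Set against the myelinating cells, there were 13.4 to 17.5 OPC per 100 mature oligodendrocytes, on average 15.9 ± 2.20 with saline and 15.98 ± 1.23 with naloxone (exact permutation p = 0.9, n = 3 each). The median OPC nucleus held 3720, 2964 and 4131 UMIs with saline and 3603.5, 2917 and 4915 UMIs with naloxone. Depth per nucleus therefore overlapped between the groups (exact permutation p = 1.0, n = 3 each). Its group difference of 207 UMIs turned to -114 without saline library 2 and to -345 without naloxone library 6.

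**Figure D1:**
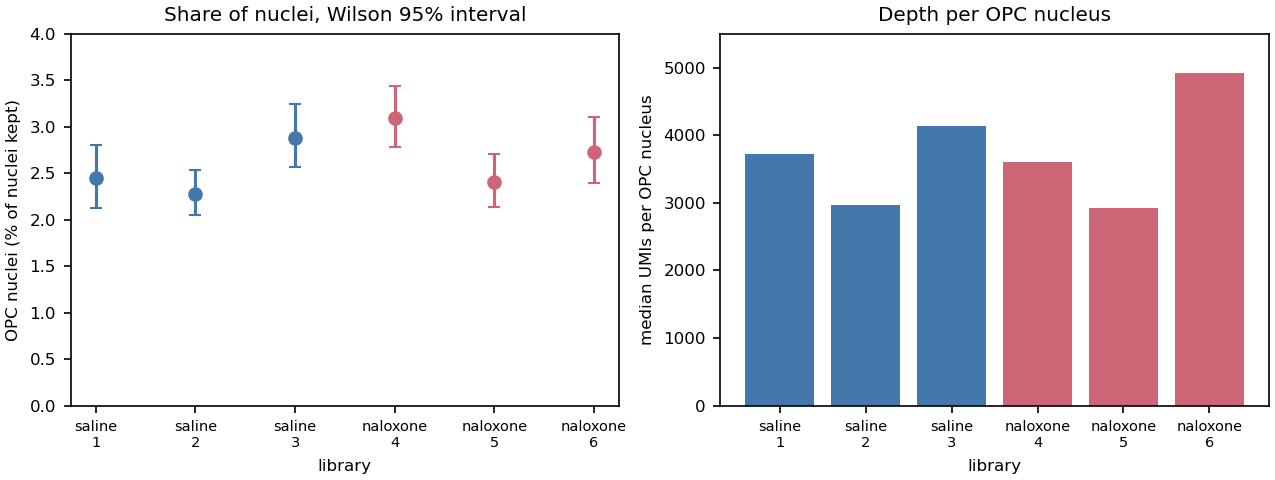
Left, OPC as a percentage of nuclei kept in each of the 6 libraries, with the Wilson 95% interval, which covers counting error only; right, the median UMIs per OPC nucleus in each library. Shares lie between 2.28 and 3.10% and the saline and naloxone libraries overlap in both panels.

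The label was checked on genes the rule did not use. Col5a3, a fibrillar collagen of OPC, stood at 1857 ± 350 CPM (a gene's UMIs scaled to all UMIs of the class in a library; mean ± SD over 6 libraries) in OPC, and at 26.4 CPM or below in the 3 comparison classes. Megf11, an EGF-repeat membrane protein, stood at 1586 ± 63.5 CPM in OPC and at 29.1 CPM or below elsewhere. Those classes, built by similar rules, were 10266 mature oligodendrocytes (Mog plus Opalin at least 2 UMIs), 729 astrocytes (Aqp4 at least 2) and 20466 GABA neurons (Gad1 plus Gad2 at least 3). Since the rule picks nuclei by their expression, these class differences are a description and were not tested.

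OPC were bounded by the marker threshold and by the limits on other cell types. Nuclei with exactly 3 marker UMIs, just inside, numbered 101 and held 2335 ± 608 CPM of Col5a3 plus Megf11. Those with 2 marker UMIs, just outside, numbered 90 and held 2319 ± 820 CPM, which lies within the spread of the first group. Nuclei with 1 marker UMI, 143 in number, held 424 ± 318 CPM. Of 2666 nuclei that met the marker condition, 624 (23.4%) carried a Mog or Opalin UMI, 705 (26.4%) exceeded the Gad1 and Gad2 limit and 254 (9.53%) carried a Csf1r UMI, while 1612 (60.5%) passed all limits.

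Of 3595 genes at 50 CPM or above in OPC, 33 stood at least 10 times above the highest comparison class. This count did not leave out the genes of the rule, whose ratios follow from the choice of nuclei. Besides the markers these included C1ql1 (203 CPM, 37.2 times), a secreted C1q-domain protein, Sema3d (524 CPM, 34.6 times), a secreted semaphorin, and Ccnd1 (96.8 CPM, 31.9 times), the cyclin of the early cell cycle. Neu4 (97.3 CPM, 43.1 times), a sialidase, and Gpr17 (54.9 CPM, 13.6 times), a receptor of committed precursors, belonged to the same set. Among the genes the rule did not use, the highest ratio was that of Fam89a, at 178 ± 15.3 CPM in OPC and 123 times its level in the next class.

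**Figure D2:**
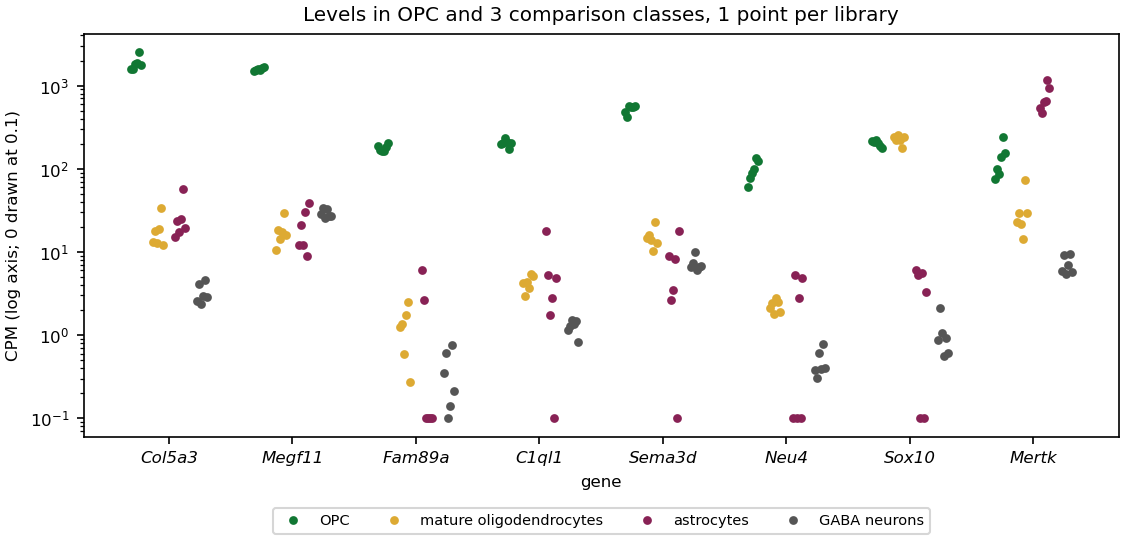
CPM on a log axis of 8 genes in OPC, mature oligodendrocytes, astrocytes and GABA neurons, 1 point per library (values of 0 are drawn at 0.1). Col5a3, Megf11, Fam89a, C1ql1 and Sema3d separate OPC from the other classes in every library, whereas Mertk is higher in astrocytes.

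Transcripts of other cell types were present in OPC. The 6 astrocyte markers summed to 462 to 570 CPM in OPC of the saline libraries and 549 to 931 CPM in the naloxone libraries, none of the 6 at 0, against 10391 CPM in the astrocyte class. The share of OPC nuclei with a UMI of Aqp4, Gja1, Gfap or Aldh1l1 was 10.4, 13.3 and 12.7% with saline and 17.2, 15.9 and 17.0% with naloxone, so the groups did not overlap. These shares were not corrected for depth per nucleus, Aqp4 was limited by the rule, and the difference was not tested. The 8 neuronal markers summed to 1281 to 1670 CPM with saline and 1323 to 1585 CPM with naloxone, on average 1492 CPM, against 6825 CPM in the GABA neuron class and 945 CPM in mature oligodendrocytes. The 6 myelin markers summed to 316 to 473 and 352 to 604 CPM, with Mog and Opalin at 0 by the rule, against 12720 CPM in mature oligodendrocytes. Microglial markers averaged 26.3 CPM with Csf1r at 0 by the rule, endothelial ones 7.66 CPM, mural ones 4.96 CPM and ependymal ones 2.42 CPM with Foxj1 and Drc12 at 0. The rule also limited Gad1 and Gad2 in the neuronal sum, Aqp4 in the astrocyte sum and Pdgfrb and Rgs5 in the mural sum. The comparison classes were themselves chosen by Gad1 and Gad2, Aqp4 or Mog and Opalin. These sums therefore do not measure the full amount of such transcripts near OPC.

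Naloxone and saline OPC differed in few transcripts. Fkbp5, Zbtb16 and Mertk, all members of the glucocorticoid response list, were higher with naloxone, as were Nedd9, Spsb1, Ly6h and the unnamed gene ENSRNOG00000067598. Hsph1 and Stip1, both partners of the Hsp70 and Hsp90 chaperones, and Gask1b were lower. These were 10 of 9291 genes tested (0.108%) at an adjusted p under 0.05 in edgeR's quasi-likelihood test on UMI sums per library. The 7 higher genes are 0.0753% and the 3 lower genes 0.0323% of those tested, while 622 genes (6.69%) had an unadjusted p under 0.05.

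Fkbp5 encodes a co-chaperone of Hsp90 that lowers the sensitivity of the glucocorticoid receptor. It measured 18.4, 18.1 and 18.5 CPM in the saline libraries and 53.6, 101 and 46.4 CPM in the naloxone libraries. The saline values lay within 1 CPM of each other and every naloxone library was above them, library 5 most of all. The log2 difference was 1.81 ± 0.28 (SE), a 3.51-fold higher level, with an edgeR adjusted p of 0.0173.

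Zbtb16, a zinc-finger transcriptional repressor, measured 97.5, 128 and 183 CPM with saline and 295, 552 and 259 CPM with naloxone. Again the groups did not overlap and naloxone library 5 was the highest (log2 difference 1.38 ± 0.22, edgeR adjusted p = 0.0173). Mertk, a receptor tyrosine kinase of phagocytosis, measured 75.1, 98.1 and 85.6 CPM with saline and 138, 241 and 153 CPM with naloxone. Its log2 difference was 1.00 ± 0.17 (edgeR adjusted p = 0.0234). Mertk stood at 545 ± 77.2 CPM in saline astrocytes and 914 ± 253 CPM in naloxone astrocytes, and the share of OPC with an astrocyte marker UMI was higher in the naloxone libraries. Without those nuclei the Mertk difference was 0.84, with an edgeR adjusted p of 0.0901.

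Nedd9, a scaffold protein of integrin signalling, measured 32.9, 40 and 29.1 CPM with saline and 79.6, 101 and 59.9 CPM with naloxone. Every naloxone library exceeded every saline library (log2 difference 1.21, edgeR adjusted p = 0.0232). Spsb1, an adaptor of a ubiquitin ligase, measured 19.8, 23.8 and 25.6 CPM against 45.7, 69.3 and 54.0 CPM. Its log2 difference was 1.24 ± 0.22 (edgeR adjusted p = 0.0234). Ly6h, a membrane-anchored protein that acts on nicotinic receptors, measured 26.3, 29.5 and 31.8 CPM against 67.0, 75.5 and 47.2 CPM. With an edgeR adjusted p of 0.0495 and a log2 difference of 1.08 ± 0.21 it lay closest to the threshold.

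The unnamed gene ENSRNOG00000067598 measured 7.90, 9.52 and 7.94 CPM in saline OPC and 37.8, 94.0 and 28.7 CPM in naloxone OPC. Its naloxone values spread over a range of levels, all above saline, and gave a log2 difference of 2.55 ± 0.41 (edgeR adjusted p = 0.0173). The saline libraries held only 6, 10 and 9 UMIs of it. The gene thus passed the low-count filter through the naloxone libraries, where it was high, which limits this call. The same gene stood at 299 ± 35.8 CPM in mature oligodendrocytes with saline and 588 ± 111 CPM with naloxone, far above its OPC level. Myelin markers in OPC reached 352 to 604 CPM in the naloxone libraries, and their part in this difference was not tested.

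Gask1b, which encodes a Golgi-associated protein, was lower with naloxone. It measured 55.3, 50.5 and 55.6 CPM with saline and 29.2, 18.6 and 22.8 CPM with naloxone, without overlap (log2 difference -1.15 ± 0.21, edgeR adjusted p = 0.0320). In the comparison classes Gask1b averaged 1.09 CPM or less in either treatment group.

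**Figure D3:**
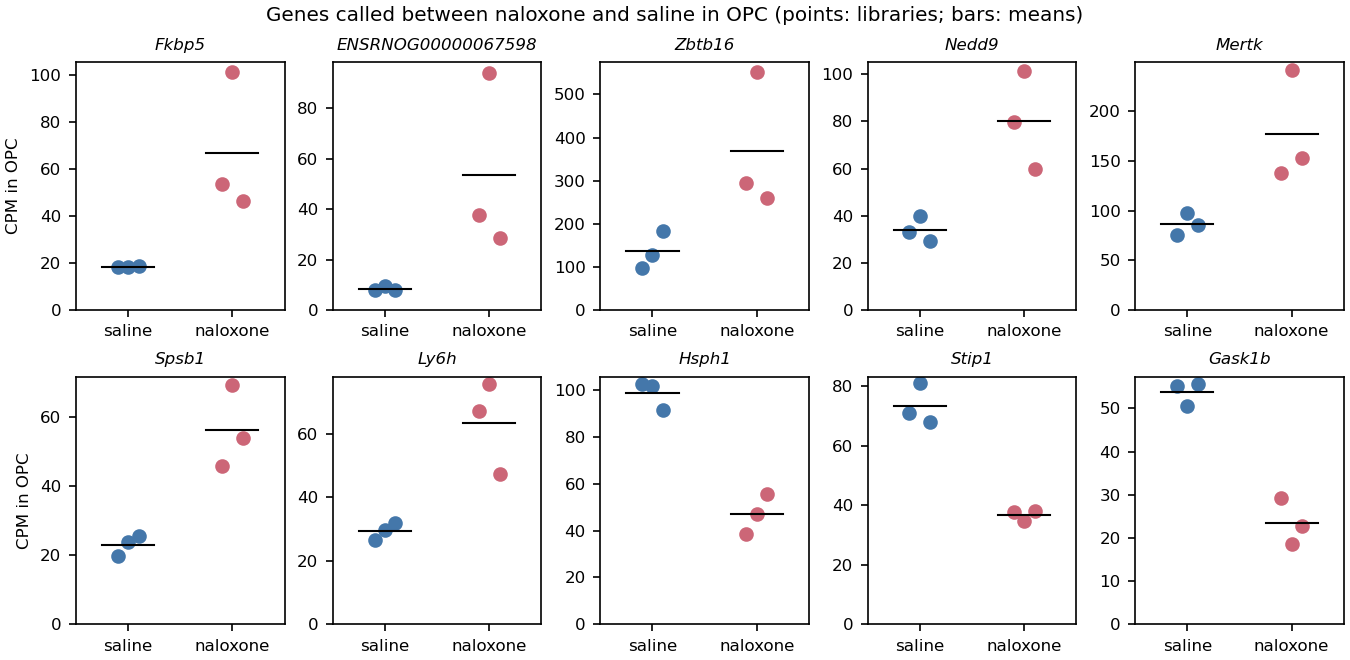
CPM in OPC of the 10 genes that differed between naloxone and saline, 1 point per library and a bar at each group's mean, each panel on its own axis from 0. In every panel the 3 naloxone points lie all above or all below the 3 saline points.

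All 10 genes kept their direction in each of the 160 refits of single genes under the alternatives. Of these refits, 91 kept an adjusted p under 0.05. The groups of these genes did not overlap, so leaving out 1 library could hardly reverse a direction. The other refits reused the same libraries, so the kept directions are no further support. The calls depended on the libraries: leaving out saline library 1 or 2 left 0 called genes and leaving out saline library 3 left 1. Leaving out naloxone library 4, 5 or 6 gave 13, 8 and 7. Fkbp5 passed in 3 of the 6 such fits with 1 library left out (adjusted p 0.00546 to 0.0958), Zbtb16 in 4, Hsph1 and Nedd9 in 2, ENSRNOG00000067598 in 3, Mertk, Spsb1, Gask1b and Ly6h in 1 and Stip1 in 0 (adjusted p 0.0652 to 0.133). With DESeq2 Zbtb16 (adjusted p = 0.528), Spsb1 (0.212), Stip1 (0.286), Gask1b (0.317) and Ly6h (0.347) were not called. Without naloxone library 5 the log2 difference was 1.46 for Fkbp5 and 1.01 for Zbtb16. Without OPC that held an astrocyte marker UMI, 4 genes were called (ENSRNOG00000067598, Zbtb16, Nedd9 and Spsb1) and Fkbp5 differed by 1.52 (adjusted p = 0.0669).

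The glucocorticoid response list held 25 genes, of which 9 passed the filter on low counts. Of these, 3 were called higher (0.0753% of all genes tested were) and 0 lower. Without overlap between the groups 6 were higher, against a background of 6.19% of all genes tested. The 9 genes had a median log2 difference of 0.92, against -0.0018 over all genes. The list was made with earlier results of these data known, so its counts and median are a description, not a test of the list. Errfi1, a feedback inhibitor of the EGF receptor family, measured 63.2, 43.8 and 41.5 CPM with saline and 89.8, 176 and 85.2 CPM with naloxone, but missed the threshold (log2 difference 1.22 ± 0.24, edgeR adjusted p = 0.0594). Klf9, a transcription factor known to restrain proliferation, differed by 0.92 (edgeR adjusted p = 0.312) and Sgk1, a kinase acting on ion transport, by 0.34 (edgeR adjusted p = 0.542). The receptor genes themselves differed by -0.29 (Nr3c1, edgeR adjusted p = 0.623) and -0.03 (Nr3c2, adjusted p = 0.987).

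Transcripts of 2 chaperone partners were lower with naloxone in the same libraries. Hsph1, the Hsp110 exchange factor that recharges Hsp70, measured 103, 102 and 91.7 CPM with saline and 38.6, 47.0 and 55.6 CPM with naloxone. Each naloxone library held less than any saline library, and the log2 difference was -1.06 ± 0.17 (edgeR adjusted p = 0.0173). Stip1, which couples Hsp70 to Hsp90, measured 71.1, 81.0 and 67.9 CPM with saline and 37.8, 34.6 and 37.9 CPM with naloxone. Its naloxone values were nearly equal and the log2 difference was -0.98 ± 0.17 (edgeR adjusted p = 0.0234).

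Of the 35 genes listed as heat shock and chaperone genes, 34 were in the files and 27 passed the filter. Among the 27, 2 were called lower (0.0323% of all genes tested were) and 0 higher. In all 22 lay below 0 (50.4% of all genes tested did), and 10 were lower without overlap, against 6.66% of all genes tested. The 27 genes had a median log2 difference of -0.24. This list too was made with earlier results of these data known, so its counts and median are a description only. Chordc1, an Hsp90 co-chaperone, measured 115, 83.8 and 105 CPM with saline and 57.5, 60.6 and 59.0 CPM with naloxone, yet missed the threshold (-0.77, edgeR adjusted p = 0.0852). Dnaja1, an Hsp40 partner of Hsp70, differed by -0.53 (adjusted p = 0.404), and Ahsa1, the activator of Hsp90, by -1.07 (adjusted p = 0.550). The main chaperones differed less: Hsp90aa1 by -0.23, Hspa8 by -0.24 and the endoplasmic reticulum chaperone Hspa5 by -0.29. Hsf1 and Hsf2, transcription factors of the heat shock response, differed by 0.04 and -0.04.

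**Figure D4:**
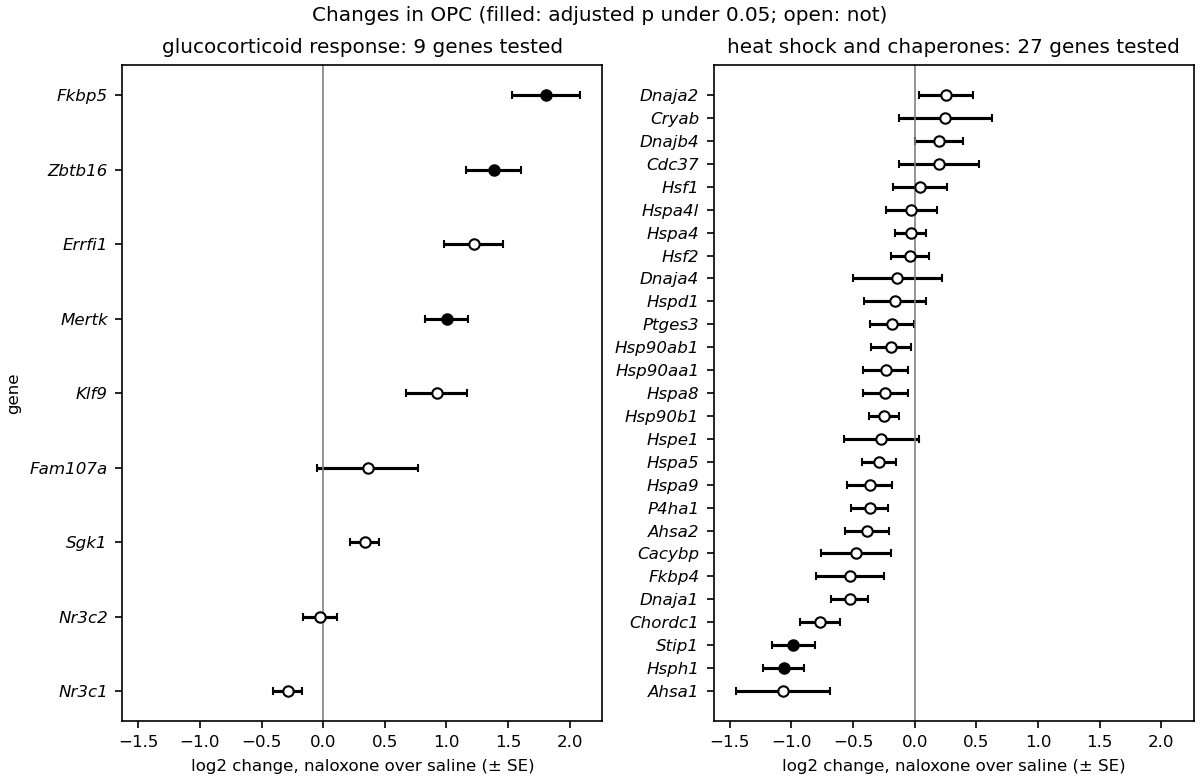
Log2 difference of naloxone over saline in OPC, with its standard error, for each tested member of the glucocorticoid response list (9 genes) and of the heat shock and chaperone list (27 genes). Members of the first list run from -0.29 to 1.81 and those of the second from -1.07 to 0.25, and filled points mark the 3 and 2 called genes.

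Because Hsph1 and Stip1 differed together, the 250 bases before their transcription starts are shown from RefSeq (assembly GRCr8, while the deposited counts were made on mRatBN7.2). Capitals mark GAA and TTC units spaced as in a heat shock element, the binding motif of Hsf1. Hsph1 lies at chr12:10427118-10427367 on the plus strand and Stip1 at chr1:213657655-213657904 on the minus strand.
Hsph1: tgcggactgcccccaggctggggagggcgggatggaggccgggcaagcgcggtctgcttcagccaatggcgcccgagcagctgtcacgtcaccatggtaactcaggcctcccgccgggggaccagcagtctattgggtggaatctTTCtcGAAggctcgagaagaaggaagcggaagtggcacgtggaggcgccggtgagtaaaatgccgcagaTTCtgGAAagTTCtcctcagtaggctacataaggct
Stip1: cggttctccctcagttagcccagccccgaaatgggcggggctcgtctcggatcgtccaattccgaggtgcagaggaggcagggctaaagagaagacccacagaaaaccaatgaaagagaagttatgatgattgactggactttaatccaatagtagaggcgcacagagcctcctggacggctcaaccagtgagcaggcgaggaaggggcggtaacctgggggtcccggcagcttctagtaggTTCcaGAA

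The Hsph1 window holds a run of 3 units close to the start, whereas the Stip1 window holds 1 pair of units ending at the base before the start. Runs of at least 3 units of other chaperone genes in the list are shown to compare the units and their neighbours, Hspa8 at chr8:50080451-50080479, Dnaja1 at chr5:60638405-60638433, Chordc1 at chr8:23650828-23650856 and Hspe1 at chr9:64084257-64084284, all on the plus strand. The runs of Chordc1 and Hspe1 are longer than 3 units. The Hspe1 run is also that of Hspd1, read on the other strand, since the 2 genes of the mitochondrial chaperonin face away from each other.
Hsph1: gccgcagaTTCtgGAAagTTCtcctcagt
Hspa8: cggaacccTTCtgGAAggTTCtaagacag
Dnaja1: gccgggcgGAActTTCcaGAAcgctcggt
Chordc1: ccgGAAcgTTCggGAAgaTTCctGAAgca
Hspe1: ctcggTTCtaGAAccTTCcgGAAggccc

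A run of 3 units (GAA and TTC alternating, each separated from the next by any 2 bases, starting with either, both strands) was found in 7 of the 28 chaperone genes with a RefSeq window (25%) and in 267 of all 33469 windows (0.798%), each reaching from 250 bases before to 50 bases after a start. A pair of units (GAANNTTC or TTCNNGAA) was in 16 of the 28 (57.1%) and in 15.9% of all windows, and every run of 3 also holds a pair. Among the 10 genes called in OPC, 7 had a window, and Hsph1, Nedd9, Spsb1 and Stip1 held a pair. The core of a glucocorticoid response element (ACANNNTGT, both strands) was in 0 of those 7 windows, in 3 of 22 windows of the glucocorticoid list (Tsc22d3, Map3k6 and Fam107a) and in 6.86% of all windows. A match describes the letters of these windows only.

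The changes were then set beside those of the other classes in the same libraries, with a class by treatment term that tests the difference of the naloxone effect itself (edgeR, library as a block). Within a class, 18 of 11930 genes were called in mature oligodendrocytes (0.151%), 0 of 6155 in astrocytes (0.0%) and 18 of 15632 in GABA neurons (0.115%). Against mature oligodendrocytes 0 of 11471 genes differed (0.0%; 552 genes, 4.81%, at an unadjusted p under 0.05), and against astrocytes 0 of 9317 (0.0%; 409 genes, 4.39%). Fkbp5 was 43.8 ± 0.980 CPM with saline and 171 ± 88.9 CPM with naloxone in mature oligodendrocytes, and 17.3 ± 3.31 and 148 ± 110 CPM in astrocytes (n = 3 each). Its effect in OPC differed from that in mature oligodendrocytes by -0.06 ± 0.22 and from that in astrocytes by -1.14 ± 0.41 on the log2 scale. Leaving out naloxone library 5 gave 3 genes that differed from mature oligodendrocytes and 8 that differed from astrocytes. Leaving out saline library 2 gave 1 gene against mature oligodendrocytes, and leaving out saline library 1 or naloxone library 6 gave 1 against astrocytes.

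Against GABA neurons 25 of 15496 genes differed in their naloxone effect (0.161%), 20 with a more positive change in OPC (0.129%) and 5 with a more negative one (0.0323%), while 937 genes (6.05%) had an unadjusted p under 0.05. Fkbp5 was 37.4 ± 1.55 CPM with saline and 50.1 ± 11.6 CPM with naloxone in GABA neurons, so that its effect was larger in OPC by 1.40 ± 0.23 (edgeR adjusted p = 0.000752). Nedd9 (20.8 and 24.2 CPM in GABA neurons) had an effect larger in OPC by 0.99 (edgeR adjusted p = 0.0244). For Mertk (6.82 and 7.44 CPM) the effect was larger by 0.89 (adjusted p = 0.0212), and for Errfi1 (17.6 and 21.7 CPM) by 0.93 (adjusted p = 0.0190). Hsph1 averaged 129 ± 3.27 CPM with saline and 79.4 ± 11.9 CPM with naloxone in GABA neurons, and its difference between the classes was -0.37 (edgeR adjusted p = 0.745), so no unequal effect was detected. For Zbtb16 the difference was 0.40 (adjusted p = 0.684).

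Without 1 library the Fkbp5 difference from GABA neurons kept its call in all 6 fits. That of Nedd9 lost it without saline library 3 (adjusted p = 0.0709) or naloxone library 5 (0.123), that of Errfi1 without saline library 3 (0.0761) or naloxone library 5 (0.110), and that of Mertk without saline library 2 (0.153) or naloxone library 5 (0.0515) or 6 (0.0844). The count of 25 became 57 without saline library 2, 56 without saline library 3 and 39 without naloxone library 4 or 5.

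Other genes whose effect differed from that in GABA neurons included receptors and signalling genes detected in OPC. Some were higher in saline GABA neurons than in saline OPC, such as Grm8 (566 against 25.3 CPM) and Il1rapl2 (465 against 25.6 CPM). Others, such as Gabrg1 and Pik3r1, were higher in OPC. Neuronal transcripts were present in OPC, and their part in these differences was not tested. Gabrg1, a subunit of the GABA-A receptor, averaged 279 ± 14.4 CPM in saline OPC and 228 ± 28.8 CPM in naloxone OPC, while it was 100.2 and 126 CPM in GABA neurons, a difference of -0.62 (edgeR adjusted p = 0.0126). Pik3r1, the regulatory subunit of PI3-kinase, was 353 ± 17.6 and 462 ± 34.0 CPM in OPC and 76.5 and 70.0 CPM in GABA neurons (0.51, adjusted p = 0.0244). Rcan2, an inhibitor of calcineurin, was 148 ± 22.1 and 225 ± 41.2 CPM in OPC and 418 and 396 CPM in GABA neurons (0.67, adjusted p = 0.0126). Bcas1, a gene of early myelinating cells, differed by 0.83 (adjusted p = 0.0244), where OPC stood at 2101 and 2211 CPM and GABA neurons at 18.2 and 11 CPM, so the larger relative difference lay in the neuronal class. None of these genes was called within OPC alone.

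**Figure D5:**
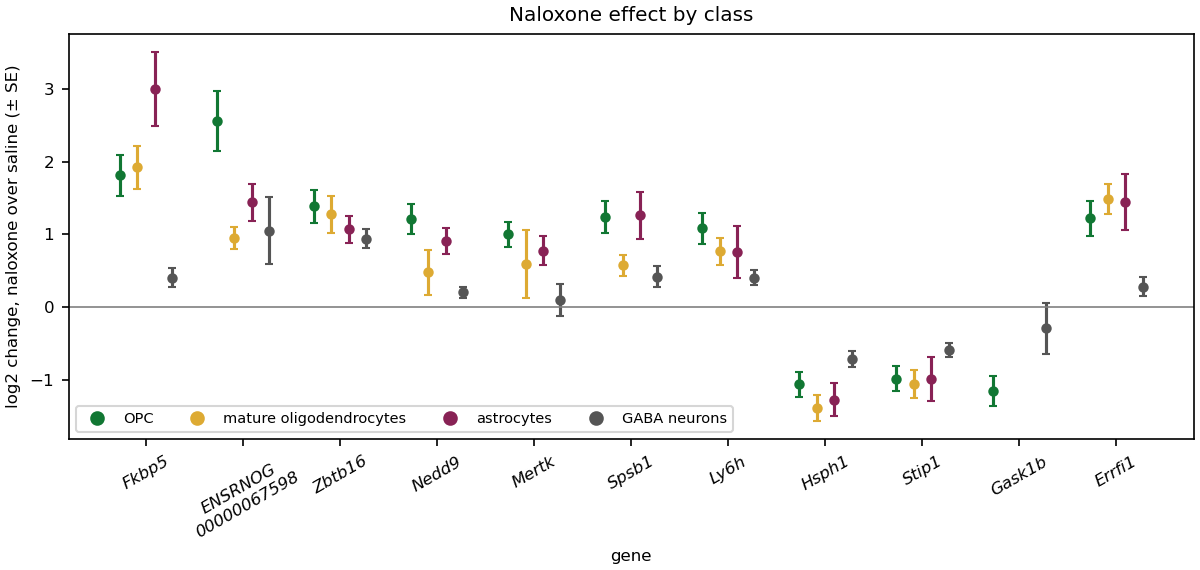
Log2 difference of naloxone over saline with its standard error for genes named in the text, in OPC and in the 3 comparison classes. Fkbp5 lies at 1.81 in OPC, 1.92 in mature oligodendrocytes, 2.99 in astrocytes and 0.40 in GABA neurons.

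Of the 22 OPC identity genes listed, 21 were in the files and passed the filter. Pdgfra, Cspg4 and Vcan are genes the rule used, so their levels are given as a description and nothing is read from them, here or in the growth factor and matrix lists. Among the other 18, 0 were called and 5 had an unadjusted p under 0.05 (6.69% of all genes tested did), with a median log2 difference of 0.023. Pdgfra measured 661, 755 and 684 CPM with saline and 660, 777 and 664 CPM with naloxone. Over all 6 libraries Cspg4 stood at 441 ± 65.9 CPM, Vcan at 1559 ± 48.6, Bcan at 176 ± 32.1, Ncan at 10.6 ± 5.79, Cspg5 at 219 ± 36.3, Tnr at 532 ± 46.1 and the phosphatase Ptprz1 at 4564 ± 241. CPM does not correct for gene length, so levels are not ranked between genes.

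Of the transcription factors that set oligodendrocyte fate, Sox10 stood at 203 ± 16.5 CPM, Sox5 at 1245 ± 45.1, Sox6 at 2477 ± 167, Olig1 at 52.3 ± 18.4 and Olig2 at 75.5 ± 9.07. Olig1 measured 31.6, 34.3 and 52.0 CPM with saline and 53.6, 81.7 and 60.7 CPM with naloxone, without overlap, but its log2 difference of 0.68 missed the threshold (edgeR adjusted p = 0.498). The adhesion and synapse-related genes Pcdh15 (6805 ± 390), Nxph1 (5062 ± 641), Dscam (3263 ± 268), Luzp2 (2234 ± 215) and Tmem132d (854 ± 33.8) were also listed. Xylt1 (2297 ± 209), which is on the matrix list too, completed the list. Of the 18 genes the rule did not use, 3 were higher without overlap (Olig1, Xylt1 and Dscam) and 3 lower (Pcdh15, Sox10 and Ncan), where 6.19 and 6.66% of all genes tested were.

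Growth factor signalling genes, 19 tested of 23, held 0 calls and 0 unadjusted p under 0.05, with a median of -0.0042. Erbb4, the neuregulin receptor, averaged 3095 CPM with saline and 3178 CPM with naloxone, and Ntrk2, the BDNF receptor, 524 and 576 CPM. The matrix list, 21 tested of 23 with Cspg4 and Vcan among them, held 0 calls and 4 unadjusted p under 0.05 (6.69% of all genes tested did), with a median of 0.07. Col5a3, which the rule did not use, measured 1577, 1579 and 1824 CPM with saline and 1870, 2527 and 1765 CPM with naloxone, overlapping between the groups (0.30, edgeR adjusted p = 0.574).

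Transmitter receptor and channel genes were widely detected in OPC, 38 of 40 passing the filter, and 0 were called, with a median of -0.012. Gria4, an AMPA receptor subunit, averaged 2031 CPM with saline and 1996 CPM with naloxone, and the metabotropic glutamate receptor Grm5 1196 and 1287 CPM. Adora1, the A1 adenosine receptor, measured 61.9, 79.0 and 77.6 CPM against 87.5, 120 and 97.0 CPM and was higher without overlap, with an edgeR adjusted p of 0.541. Gabrg1 measured 287, 263 and 288 CPM against 227, 200.5 and 258 CPM, lower without overlap (-0.28, adjusted p = 0.664). Of the 38 genes, 4 had an unadjusted p under 0.05, against 6.69% of all genes tested. Without overlap 3 were higher and 6 lower, where 6.19 and 6.66% of all genes tested were.

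The receptors naloxone blocks were sparse in OPC. Oprm1, the mu opioid receptor, stood at 8.31 ± 4.36 CPM in OPC over the 6 libraries (50 UMIs in all), at 13.6 ± 3.31 in mature oligodendrocytes, 9.47 ± 4.96 in astrocytes and 67.3 ± 6.17 CPM in GABA neurons. It measured 6.59, 6.67 and 3.53 CPM in saline OPC and 10.2, 16.1 and 6.75 CPM in naloxone OPC, too few counts to pass the filter, and was not tested. At that level the OPC value does not stand apart from the glial classes beyond the spread between libraries.

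Oprk1, the kappa receptor, stood at 12.1 ± 2.13 CPM in OPC, 5.12 ± 2.48 in mature oligodendrocytes, 1.70 ± 1.95 in astrocytes and 19.5 ± 2.85 CPM in GABA neurons. Oprl1, the nociceptin receptor, stood at 8.08 ± 5.02 CPM in OPC, 1.45 ± 0.722 in mature oligodendrocytes, 0.562 ± 0.871 in astrocytes and 4.75 ± 0.538 CPM in GABA neurons. For Oprl1 the OPC mean was 11.1 CPM in the saline group and 5.08 CPM in the naloxone group, which did not pass the test (log2 difference -1.05, edgeR adjusted p = 0.748). Oprd1, the delta receptor, stood at 1.02 ± 0.637 CPM in OPC (6 UMIs in all). Of the opioid peptide precursors, Penk stood at 53.0 ± 15.3 CPM in OPC, 99.0 ± 26.7 in mature oligodendrocytes, 64.7 ± 29.9 in astrocytes and 54.5 ± 13.5 CPM in GABA neurons. Its OPC level was thus no higher than that of the other classes. Pdyn stood at 6.00 ± 2.03 CPM in OPC and 10.9 ± 1.54 CPM in GABA neurons, and Pnoc and Pomc at 0.770 ± 0.656 and 0.815 ± 0.745 CPM in OPC.

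Differentiation genes, 21 tested of 22, held 0 calls and 2 at an unadjusted p under 0.05 (6.69% of all genes tested were), with a median log2 difference of 0.10. Neu4 measured 60.6, 77.1 and 89.1 CPM with saline and 98.5, 134 and 125 CPM with naloxone. The groups did not overlap, but the log2 difference of 0.62 missed the threshold (edgeR adjusted p = 0.287). Bmp4, a secreted signal of committed precursors, measured 40.8, 29.5 and 29.1 CPM with saline and 24.4, 23.5 and 19.4 CPM with naloxone. It was lower without overlap (-0.54, edgeR adjusted p = 0.706). Of the 21 genes, 3 were higher and 3 lower without overlap, where 6.19 and 6.66% of all genes tested were. Genes acting as brakes on differentiation, among them Notch1 (90.5 and 87.5 CPM) and Lingo1 (137 and 122 CPM), held 0 calls among 12 tested of 21, 0 of them at an unadjusted p under 0.05.

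Over all libraries the other genes of the committed stage stood at 2156 ± 91.4 CPM for Bcas1, 54.9 ± 6.90 for Gpr17, 22.0 ± 11.9 for Enpp6, 449 ± 31.2 for Tns3, 367 ± 34.8 for Itpr2, 425 ± 20.4 for Fyn, 212 ± 20.3 for Tcf7l2, 8.53 ± 2.84 for Nkx2-2 and 18 ± 3.85 for Myrf, the master regulator of myelin genes. The Enpp6 mean rests mostly on 10 nuclei described below, while 1595 OPC held no Enpp6 UMI, so it is not the level of a typical OPC. These 10 nuclei also held more Mbp than the other OPC. Lower in the list came Rras2 at 24.6 ± 7.72, Cnksr3 at 20.1 ± 9.76 and Cemip2 at 9.32 ± 2.91 CPM. Myelin genes were present at 169 ± 61.7 CPM for Mbp, 44.6 ± 17.3 for Mobp, 14.2 ± 5.22 for Mag, 43.2 ± 4.30 for Cnp, 17.0 ± 5.44 for Cldn11, 71.3 ± 14.8 for Sirt2 and 112 ± 13.5 for Ugt8.

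Shares of nuclei with a UMI were compared after thinning each nucleus to 1000 UMIs, which left 1601 OPC and set aside 11 that were too shallow. Of 46 cell cycle and differentiation genes, 3 (6.52%) did not overlap between the groups, each at the smallest exact permutation p of 0.1 that 3 against 3 libraries allow and at an adjusted p of 1.0. Neu4 was found in 6.22, 9.15 and 9.33% of thinned OPC with saline and in 10.3, 11.5 and 13.5% with naloxone. Tns3, an adhesion protein raised in newly formed oligodendrocytes, averaged 29.96 and 34.4%. Without thinning 7 of 47 genes did not overlap, and Neu4 averaged 23.8 and 34.7%.

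Within OPC a small group of nuclei carried mitotic genes. Of 13 mitotic genes, 27 OPC held at least 3 (1.67%), 117 held 1 or 2 and 1468 held none. The same condition was met by 3 mature oligodendrocytes (0.0292%), 14 GABA neurons (0.0684%) and 0 of 729 astrocytes, which allows a share of up to 0.412%. Intervals and limits of this kind cover counting error only. The share averaged 1.80 ± 0.661% with saline and 1.502 ± 0.291% with naloxone (exact permutation p = 0.6, n = 3 each). In these nuclei Bcas1 stood at 0.32 times and Gpr17 at 0.24 times its level in the other OPC, and Tcf7l2, a transcription factor of differentiating oligodendrocytes, at 0.24 times. These nuclei were chosen by the mitotic genes among OPC, and the ratios are a description over 27 nuclei.

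Cell cycle genes, 10 tested of 25, held 0 calls and 0 at an unadjusted p under 0.05, with a median of -0.069. The D-type cyclins and their kinase stood at 96.8 ± 17.5 CPM for Ccnd1, 26.1 ± 6.73 for Ccnd2, 33.1 ± 7.83 for Ccnd3 and 31.0 ± 6.76 for Cdk6, and the brake Cdkn1b at 14.0 ± 4.44. Mitotic genes stood at 13.9 ± 4.05 CPM for Mki67, 22.9 ± 7.24 for Top2a, 18.6 ± 9.43 for Cenpf, 10.9 ± 3.51 for Cenpe, 9.07 ± 3.06 for Kif11, 8.16 ± 1.75 for Tpx2 and 6.48 ± 3.62 for Bub1. Genes of DNA replication stood at 3.71 ± 2.26 CPM for Pcna, 2.58 ± 1.40 for Mcm2, 4.22 ± 1.34 for Mcm5, 5.03 ± 2.07 for Mcm6 and 3.22 ± 2.48 for Rrm2. Of the later cyclins and mitotic genes, Cdk1 stood at 2.09 ± 1.39 CPM, Ccna2 at 2.57 ± 1.69, Ccnb1 at 1.14 ± 1.01, Ccnb2 at 1.67 ± 1.26, Aurkb at 0.970 ± 1.05 and Birc5 at 2.15 ± 2.27. The inhibitors Cdkn1a and Cdkn1c stood at 0.691 ± 0.965 and 6.35 ± 1.90 CPM.

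Genes of the committed stage were also counted per nucleus. Gpr17 had a UMI in 288 OPC (17.9%), 248 of which held exactly 1, so a UMI does not mark off a separate group. The median depth of the 288 was 4126 UMIs, against 3351 in the 1324 without a Gpr17 UMI. The deeper group held Neu4 at 1.51 times and Bcas1 at 1.34 times the level of the rest, higher in 6 of 6 libraries each. A set of 10 nuclei (0.620%) held at least 6 UMIs of Enpp6, a gene of newly formed oligodendrocytes, where 1595 OPC held none and no nucleus held 3 to 5. Their count was 1, 0 and 1 with saline and 4, 2 and 2 with naloxone. Mbp averaged 3881 CPM there, 27.9 times the level in the other OPC, and Tcf7l2 15.0 times, while Cspg4, Megf11 and Col5a3 had 0 UMIs, which allows up to 57.6 CPM for each. These 10 nuclei held 10 Pdgfra UMIs in all, so they met the rule with the lowest Pdgfra count it allows and by their Vcan.

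Immediate early genes, which neurons switch on within minutes of activity, were sparse in OPC. Only 4 of 25 passed the filter (Jun, Nr4a1, Homer1 and Klf6), with 0 calls and a median of -0.034. Fos stood at 0.272 ± 0.421 CPM and Npas4 at 0.147 ± 0.360 CPM, and Egr2, Egr3, Nr4a2 and Atf3 had no UMI in OPC, which allows a level of up to 0.483 CPM over the 6 libraries together. Differences in these 6 genes between the groups were not detectable at this depth.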

How the data were processed

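Nuclei from frozen nucleus accumbens punches were profiled with the 10x Genomics GEM-X 3' v4 kit at about 23000 read pairs per nucleus, per the labels. The authors deposited filtered matrices of raw UMI counts per gene and barcode, made with Cell Ranger 9.0.1 per the file headers, on mRatBN7.2 per the submitters' processing notes, which also name Seurat 5.2.1 and R 4.4.0. Whether intronic reads were counted is not given in the sources used here. The matrices hold 64260 barcodes and the labels state 44592 nuclei; which barcodes the authors kept is not given here, so the OPC rule was applied to all 61609 barcodes with at least 500 genes and at most 5% mitochondrial UMIs. No doublet caller was run.

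OPC counts were summed per library, and genes were tested with edgeR 4.0.16 (quasi-likelihood, TMM, filterByExpr, Benjamini-Hochberg over all genes tested, threshold 0.05) in R 4.3.3, with DESeq2 1.42.0 as an alternative. Shares and medians used exact two-sided permutation tests (scipy 1.17.1). Of 25629 genes 17288 had a UMI in OPC. On simulated data for the OPC comparison (9045 genes), 121 of 200 genes changed by log2 1 were recovered (60.5%), with 7 false calls; without changes there were 2 false calls. Libraries of 1 group differed beyond counting noise (chi-square per degree of freedom 1.68 to 3.07). The genes named are all called genes and the levels of the identity, opioid, differentiation and cell cycle lists; other named members were chosen after their values were seen. The members, gene lists and tests were chosen with earlier results of these data known. Alternatives changed the normalization, the low-count filter, the rule's limits, the nuclei kept, the covariate, the tool and the libraries included. The values of 1 gene of the differentiation list are not reported here.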

Additional observations from a re-analysis of the deposited data

Results flagged for a closer look

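The naloxone effect differed between OPC and GABA neurons of the same libraries for 25 genes (edgeR class by treatment term, adjusted over 15496 genes). Among the genes called in OPC these were Fkbp5, whose log2 effect was larger in OPC by 1.40, Nedd9 (0.99) and Mertk (0.89). Named genes that were not called in OPC were Errfi1 (0.93), Bcas1 (0.83), Rcan2 (0.67), Pik3r1 (0.51) and Gabrg1 (-0.62). The smallest p-values of this term were those of Pdzrn4 (-1.06) and A630010A05Rikl (3.57). A630010A05Rikl stood at 84.5 and 47.5 CPM in saline and naloxone GABA neurons, against 4.81 and 28.7 CPM in OPC. Pdzrn4 stood at 15.3 and 23.2 CPM in GABA neurons, against 272 and 195 CPM in OPC. In OPC, Fkbp5, Nedd9, Mertk and Errfi1 were each higher in all 3 naloxone libraries than in any saline library, as were 6.19% of all genes tested. These genes were named for their OPC values, so this is a description.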

How the results depend on the processing

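The count of 10 genes called in OPC became 55 without the filter on low counts, 17 without nuclei over 3 times the median UMIs, 6 with exclusion limits of 0 UMIs, 5 with the female share of nuclei as a covariate, 4 without nuclei that held an astrocyte marker UMI (an alternative chosen after seeing the data), and 0 to 13 with 1 library left out. Of the 10 genes, 6 stayed called with limits of 0 UMIs, 4 without the astrocyte marker nuclei, 4 with the covariate, 5 with DESeq2 (7 genes called) and 0 to 7 with 1 library left out. The cause of these shifts was not tested, apart from the larger number of genes without the filter. The difference in median UMIs (207) ran from -345 to 654 with 1 library left out, reversed to -114 without saline library 2 and to -345 without naloxone library 6. Genes whose effect differed from mature oligodendrocytes numbered 25 without the filter and 0 to 3 with 1 library left out, from astrocytes 27 and 0 to 8, and from GABA neurons 53 and 24 to 57. Non-overlapping shares numbered 7 without thinning and 5 to 9 with 1 library left out, where 2 against 3 libraries overlap less often by construction. The difference in OPC share kept its sign under each alternative, 0.0314 to 0.382 with 1 library left out. No paired analysis was possible because the saline and naloxone libraries share no replicate number. Depth limits sparse genes: 2 of the 4 opioid receptors and all but 4 of the 25 immediate early genes failed the filter.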
